A study of Homo sapiens with 6 samples.

Results

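The MAPK dual-specificity phosphatases examined here are 10 genes, DUSP1, DUSP2, DUSP4, DUSP5, DUSP6, DUSP7, DUSP8, DUSP10, DUSP14 and DUSP16, out of 63086 genes in the deposited table. They were chosen by name and found by matching Ensembl identifiers to GENCODE symbols, and each had 1 row. All 10 passed the count filter that left 16046 genes for testing. The libraries, 3 wild-type and 3 DUS1L knockout, were made from total RNA of the human melanoma cell line A375, in which an activating BRAF mutation drives the ERK pathway. DUS1L encodes a dihydrouridine synthase that modifies tRNA. The knockout was made with CRISPR/Cas9 and passed through clonal selection, whereas wild-type cells were carried alongside and never targeted. How many clones were used is not stated, so an effect of losing DUS1L and the history of a single clone cannot be told apart in any value below. The submitters call the libraries biological replicates, and the p-values below measure only the spread between them.

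MAP kinases are switched on when a threonine and a tyrosine in their activation loop are phosphorylated, and dual-specificity phosphatases switch them off by removing both phosphates. DUSP5 (nuclear), DUSP6 and DUSP7 (cytoplasmic) act mainly on ERK, the kinase at the end of the RAS, RAF and MEK cascade. DUSP8, DUSP10 and DUSP16 act mainly on the stress kinases JNK and p38. DUSP1, DUSP2 and DUSP4 are nuclear enzymes, induced by many stimuli, that act on more than one MAP kinase, and DUSP14 is a small atypical member without the amino-terminal kinase-binding domain. Several of these genes are themselves switched on by MAP kinase signalling, so they form negative feedback loops, and DUSP6 and DUSP4 transcripts are widely used readouts of ERK output in BRAF-mutant melanoma. The RNA counts say nothing of phosphatase protein or activity.

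Promoter sequences are shown first for 3 genes that differ most in what follows, DUSP8 and DUSP1, which had the highest fold changes of the 10, and DUSP6, which had the lowest. Each is the 250 bases before the annotated start, 5′ to 3′ on the minus strand, from RefSeq on build GRCh38.p14, and capitals mark each cAMP response element, TGACGTCA. The stretches are chr11:1572272-1572521 for DUSP8, chr5:172771196-172771445 for DUSP1 and chr12:89352502-89352751 for DUSP6.
DUSP8: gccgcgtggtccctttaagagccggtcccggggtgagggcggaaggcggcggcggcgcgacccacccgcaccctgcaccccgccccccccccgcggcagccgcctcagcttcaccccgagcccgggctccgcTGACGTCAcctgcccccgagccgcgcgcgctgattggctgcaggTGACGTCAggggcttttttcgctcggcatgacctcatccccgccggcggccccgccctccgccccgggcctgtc
DUSP1: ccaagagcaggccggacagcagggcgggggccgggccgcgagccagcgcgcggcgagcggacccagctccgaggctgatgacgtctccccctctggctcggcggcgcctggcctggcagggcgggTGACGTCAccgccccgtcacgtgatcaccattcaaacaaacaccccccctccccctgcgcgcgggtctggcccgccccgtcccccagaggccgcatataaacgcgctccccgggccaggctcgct
DUSP6: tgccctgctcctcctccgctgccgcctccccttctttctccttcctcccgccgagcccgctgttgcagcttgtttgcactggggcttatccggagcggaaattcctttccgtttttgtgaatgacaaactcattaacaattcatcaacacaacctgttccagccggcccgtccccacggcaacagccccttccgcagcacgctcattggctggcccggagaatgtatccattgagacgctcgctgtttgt

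The RefSeq table held windows for 8 of the 10 genes, with 2 windows for DUSP10 and none for DUSP4 and DUSP5. In windows of 300 bases, which also take the first 50 bases after the start, 7 motifs were searched on both strands. They were the cAMP response element TGACGTCA, the AP-1 site TGANTCA, the ETS site CCGGAAG, the heat shock element core GAANNTTC, the E-box CACGTG, the TATA box TATAAA and the CArG box of serum response factor. TGACGTCA occurred at 118 to 111 and 74 to 67 bases before the start of DUSP8 and at 125 to 118 bases before the start of DUSP1. It reads the same on both strands and does not contain TGANTCA. Of 35116 windows in the table, 1.85% held TGACGTCA and 0.0598% held it 2 or more times. DUSP1 also had CACGTG, found in 7.26% of windows, and TATAAA, found in 11.5%. The window of DUSP2 had CACGTG, and none of the 7 motifs matched in the windows of DUSP6, DUSP7, DUSP10, DUSP14 or DUSP16. A match of letters is no evidence that a factor was bound. Across the genome, 14 tested genes, DUSP8 among them, held TGACGTCA 2 or more times. Of these, 14.3% were higher and 21.4% lower in knockout cells. The 427 tested genes that held it at least once include DUSP8 and DUSP1, and 23.9% were higher and 18.0% lower. Among 11164 without it the shares were 21.1% higher and 23.0% lower. These shares were not tested. GC content ran from 55.0% to 81.0% over the members' windows, against a median of 58.7% over all windows.

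The targeted gene was read first as a check of the labels. DUS1L lay between 75.7 and 79.95 CPM (counts scaled to a library of 1000000) in the wild-type libraries and between 53.1 and 55.4 CPM in the knockout libraries. The libraries labelled knockout were lower by 1.43-fold (log2 fold change -0.51, SE 0.06), and the edited bases cannot be read from gene counts. In 25.8% of tested genes all knockout values lay below all wild-type values, so this order alone does not identify the knockout. Library totals ran from 17121315 to 18861514 estimated counts, so that 3 counts equal 0.16 to 0.18 CPM. Melanocyte lineage markers summed to between 725.8 and 753.4 CPM in wild-type and between 568.8 and 628.0 CPM in knockout libraries. SOX10 carried most of that sum, TYR was at 0 in each library, and PMEL, MLANA and DCT were under 1 CPM. Of 8 leukocyte markers, CD3E and MS4A1 were at 0 in each library. Their sum was 3.47 to 4.59 CPM in wild-type and 7.45 to 13.02 CPM in knockout libraries, led by ITGAM, which lay between 4.97 and 10.8 CPM in knockout cells. Of 6 fibroblast markers none was at 0 throughout, and their sum ran from 25.8 to 70.8 CPM in wild-type and from 54.3 to 170.1 CPM in knockout libraries, the highest in knockout replicate 2. COL1A1 and COL1A2 carried most of that spread, COL1A1 with 4.70 to 37.7 CPM in wild-type and 28.5 to 100.8 CPM in knockout libraries. DCN lay between 5.37 and 7.05 CPM in wild-type and between 4.46 and 6.04 CPM in knockout libraries. Each of the fibroblast markers overlapped between the genotypes. Of 6 keratinocyte and epithelial markers KRT5 and KRT1 were at 0, and the sums were 53.6 to 59.3 and 50.2 to 59.3 CPM, nearly all from KRT10. Of 4 endothelial markers none was at 0 throughout, and their sums were 1.12 to 2.85 and 1.0095 to 2.37 CPM. The part of these markers in the results below was not tested.

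Most of the phosphatase genes were higher in DUS1L knockout cells. By edgeR's quasi-likelihood test with Benjamini-Hochberg adjustment over all 16046 genes, 8 of the 10 rose and 2 fell at an adjusted p under 0.05, with 1 to 2 lower when any 1 library was left out. In this comparison 20.5% of all tested genes rose and 20.7% fell, together 41.2% (3288 and 3320 genes). When libraries were scaled by their totals alone the counts were 3880 higher and 2732 lower. The median log2 fold change of the 10 was 0.62, against 0.00 (-0.00418) over all genes tested. In each of the 8 genes that rose, the lowest knockout library lay above the highest wild-type library, an arrangement seen in 25.4% of tested genes, and in both that fell the order was the reverse, as in 25.8%. A stricter test for changes of more than 1.5-fold (glmTreat) called DUSP8, DUSP5 and DUSP1 higher and none of the 10 lower, where 2.31% of tested genes passed upward and 1.27% downward. In bulk RNA, a change in the share of cells that express a gene and a change in RNA per cell cannot be told apart.

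**Figure D1:**
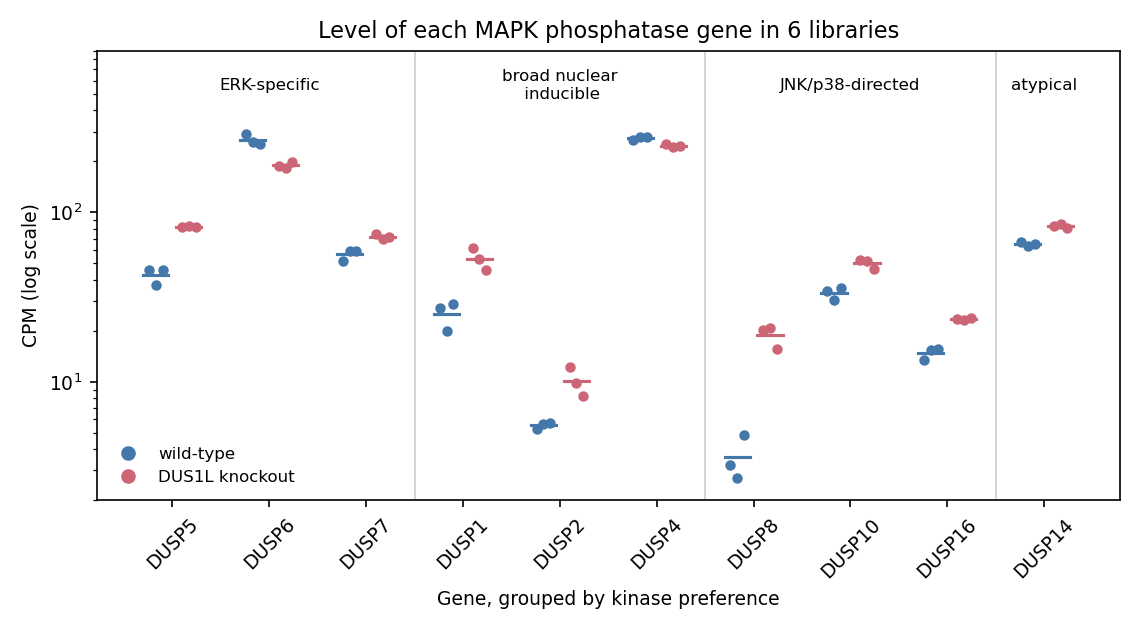
CPM on a log axis for each of the 10 genes, grouped by kinase preference, with 1 point per library (3 wild-type, 3 knockout) and a bar at each group mean. Knockout points lie above wild-type points in 8 genes and below them in DUSP6 and DUSP4.

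Among the ERK-specific phosphatases the members moved in opposite directions. DUSP6, the cytoplasmic ERK phosphatase (chromosome 12, 89347235 to 89352501, minus strand, GRCh38), measured 291.3, 260.9 and 252.1 CPM in wild-type replicates 1 to 3 and 189.1, 183.8 and 199.2 CPM in knockout replicates 1 to 3. The groups did not overlap, and the gap between the lowest wild-type and the highest knockout library was wider than the range within the knockout group. DUSP6 fell 1.41-fold (log2 fold change -0.49, SE 0.06, 95% interval -0.61 to -0.37, adjusted p = 1.09e-06, edgeR). An antisense RNA gene, ENSG00000274021, overlaps DUSP6 and held 5.9 to 46.7 estimated counts per library, against 3181 to 4955 for DUSP6, and how reads were divided between them was not given.

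DUSP5, the nuclear ERK phosphatase (chromosome 10, 110497907 to 110511533, plus strand), went the other way. Its level was 45.9, 37.4 and 45.5 CPM in wild-type and 81.8, 83.3 and 82.2 CPM in knockout libraries. The knockout values were close together (SD 0.74 CPM), and wild-type replicate 2 was the low library of its group. DUSP5 rose 1.92-fold (log2 fold change 0.94, SE 0.07, 95% interval 0.79 to 1.10, adjusted p = 5.32e-09, edgeR), and its call for more than 1.5-fold had an adjusted p of 0.00069. A processed pseudogene, DUSP5P1, had 2 to 20 estimated counts per library. The intervals of DUSP5 and DUSP6 lie on opposite sides of 0.

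DUSP7, the closest relative of DUSP6 (chromosome 3, 52048919 to 52056571, minus strand), was at 51.4, 58.97 and 58.9 CPM in wild-type and at 74.6, 69.4 and 71.98 CPM in knockout libraries. It rose 1.28-fold (log2 fold change 0.35, SE 0.07, adjusted p = 0.000354, edgeR). The knockout libraries were all higher, and wild-type replicate 1 was the low library of its group.

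All 3 JNK/p38-directed phosphatases rose. DUSP8 (chromosome 11, 1554051 to 1572271, minus strand) had the highest fold change of the 10 genes and the lowest wild-type level. It measured 3.23, 2.71 and 4.89 CPM in wild-type and at 20.3, 20.9 and 15.6 CPM in knockout libraries. These values rest on 55, 50 and 84 estimated counts in wild-type and 383, 362 and 276 in knockout libraries. Within each genotype the libraries were uneven, with wild-type replicate 3 high and knockout replicate 3 low, yet the groups lay far apart. DUSP8 rose 5.26-fold (log2 fold change 2.39, SE 0.18, 95% interval 2.01 to 2.78, adjusted p = 2.80e-08, edgeR). Among all tested genes, 99.7% had a smaller log2 fold change. The pseudogene DUSP8P5 had 4 to 11 estimated counts per library and DUSP8P1 had 0.

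DUSP10, which acts on p38 and JNK (chromosome 1, 221701424 to 221742089, minus strand), was at 34.2, 30.5 and 35.999 CPM in wild-type and at 52.4, 51.4 and 46.3 CPM in knockout libraries. It rose 1.49-fold (log2 fold change 0.58, SE 0.08, adjusted p = 8.69e-06, edgeR). DUSP16, a large JNK phosphatase that shuttles between nucleus and cytoplasm (chromosome 12, 12473282 to 12562863, minus strand), was at 13.5, 15.4 and 15.6 CPM in wild-type and at 23.6, 23.2 and 23.9 CPM in knockout libraries. Its knockout libraries were nearly alike (SD 0.32 CPM). DUSP16 rose 1.59-fold (log2 fold change 0.67, SE 0.10, adjusted p = 2.10e-05, edgeR). Neither DUSP10 nor DUSP16 passed the test for more than 1.5-fold (adjusted p = 1 and 0.737).

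**Figure D2:**
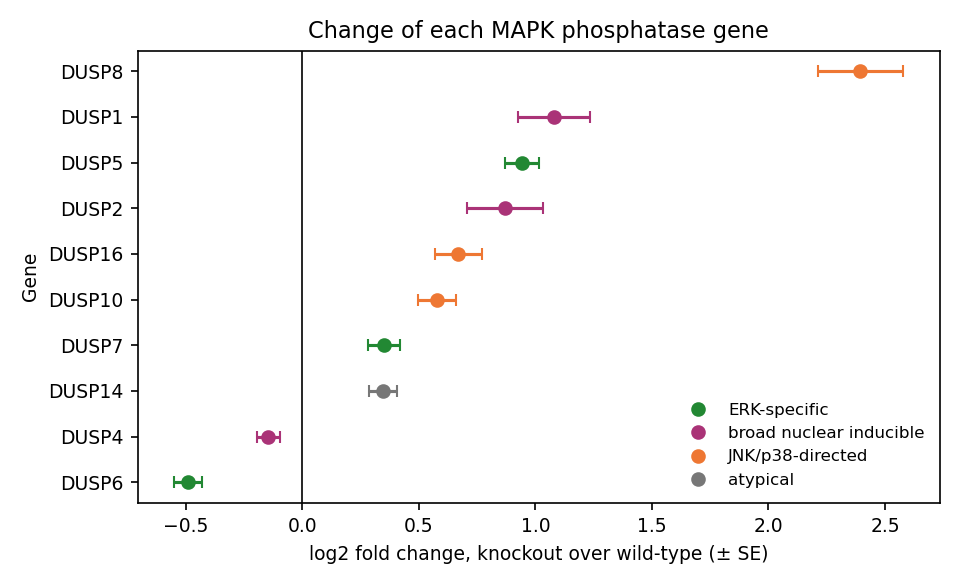
Fitted log2 fold change of knockout over wild-type for the 10 genes, ordered by size, with bars of 1 SE and colours for kinase preference. DUSP8 stands at 2.39, DUSP4 and DUSP6 lie below 0, and the ERK-specific genes are spread from -0.49 to 0.94.

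The broad nuclear phosphatases also split. DUSP1, an immediate early gene whose product acts on p38, JNK and ERK (chromosome 5, 172768096 to 172771195, minus strand), was at 27.4, 19.8 and 28.6 CPM in wild-type and at 61.4, 52.9 and 45.5 CPM in knockout libraries. Its spread was wide in both groups, which still did not overlap. DUSP1 rose 2.11-fold (log2 fold change 1.08, SE 0.16, 95% interval 0.72 to 1.44, adjusted p = 0.000769, edgeR). Its adjusted p for more than 1.5-fold was 0.0479, and that call was lost with other size factors (RLE, 0.0508), with limma-voom (0.177), without wild-type replicate 1 (0.22), without knockout replicate 1 (0.0735) and without knockout replicate 2 (0.137).

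DUSP2, best known from activated leukocytes (chromosome 2, 96143169 to 96145440, minus strand), was at 5.29, 5.64 and 5.70 CPM in wild-type and at 12.3, 9.82 and 8.29 CPM in knockout libraries. The wild-type libraries were close together and the knockout libraries spread. It rose 1.83-fold (log2 fold change 0.87, SE 0.16, adjusted p = 0.000218, edgeR), and it was not called for more than 1.5-fold (adjusted p = 0.222). The summed level of the 8 leukocyte markers was also higher in each knockout library (7.45 to 13.02 CPM) than in each wild-type library (3.47 to 4.59 CPM). Within that list, ITGAM lay between 2.41 and 2.79 CPM in wild-type and between 4.97 and 10.8 CPM in knockout libraries. CD14 lay between 0 and 0.18 CPM in wild-type and between 0.48 and 1.16 CPM in knockout libraries. LYZ was not higher, at 0.82 to 1.84 CPM in wild-type and 1.27 to 1.41 CPM in knockout libraries. NKG7 was at 0.06 CPM in wild-type replicate 1 and at 0 in each other library. Of the defining markers, CD3E and MS4A1 were at 0 throughout and PTPRC lay between 0 and 0.37 CPM. Their part in the DUSP2 result was not tested.

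DUSP4 (chromosome 8, 29333064 to 29350684, minus strand) was at 266.1, 279.9 and 277.7 CPM in wild-type and at 253.4, 244.0 and 246.2 CPM in knockout libraries. Knockout libraries were all lower by a small margin, a 1.11-fold decrease (log2 fold change -0.15, SE 0.05, 95% interval -0.25 to -0.04, adjusted p = 0.0209, edgeR). The call was lost when libraries were scaled by their totals (adjusted p = 0.105) and without wild-type replicate 2 or 3 (0.0704 and 0.058) or knockout replicate 2 or 3 (0.0708 and 0.0699). DUSP14, the atypical member (chromosome 17, 37489891 to 37513501, plus strand), was at 66.9, 63.4 and 65.3 CPM in wild-type and at 82.8, 85.0 and 80.5 CPM in knockout libraries. It rose 1.27-fold (log2 fold change 0.34, SE 0.06, adjusted p = 0.00012, edgeR), with little spread in either group.

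Set side by side, the ERK-specific genes had a median log2 fold change of 0.35 (range -0.49 to 0.94, 2 higher and 1 lower) and the JNK/p38-directed genes a median of 0.67 (range 0.58 to 2.39, 3 higher). The ranges overlap, with DUSP5 above DUSP10 and DUSP16. The mean log2 CPM of the ERK-specific genes exceeded that of the JNK/p38-directed genes by 2.93, 2.92 and 2.64 in wild-type libraries and by 1.84, 1.80 and 2.03 in knockout libraries. The mean margin was 2.83 in wild-type and 1.89 in knockout cells, a difference of -0.94, and the libraries of the 2 genotypes did not overlap. Each gene counts equally in these means, and DUSP8 changed far more (log2 fold change 2.39) than DUSP10 and DUSP16 (0.58 and 0.67). The class difference therefore rests largely on DUSP8, which had 50 to 84 estimated counts in wild-type libraries. DUSP8 and DUSP6, at the 2 ends of the list, belong to different classes. The members were chosen with results of these libraries known, and the class difference is given without a test.

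Levels of different genes can be compared per length only, here as CPM per kilobase of merged exons. In wild-type cells DUSP6 came first at 69.5 ± 5.3, then DUSP4 at 37.8 ± 1.0, DUSP14 at 26.7 ± 0.7 and DUSP5 at 16.9 ± 1.9 (SD, n = 3). DUSP1 followed at 12.6 ± 2.4, DUSP10 at 11.9 ± 1.0 and DUSP7 at 9.96 ± 0.76, and DUSP2, DUSP16 and DUSP8 lay at 2.87 ± 0.11, 2.08 ± 0.16 and 0.73 ± 0.23. The values of DUSP1 and DUSP10 overlapped, and no other neighbours in this order did. In knockout cells DUSP6 was still first at 49.4 ± 2.0, and the next places were close, with DUSP4 at 34.1 ± 0.7, DUSP14 at 33.9 ± 0.9 and DUSP5 at 32.5 ± 0.3. DUSP4 overlapped DUSP14 there, and DUSP8, at 3.82 ± 0.59, overlapped DUSP16, at 3.30 ± 0.04. The 2 genes that fell were the 2 with the highest levels in wild-type cells. With the length of the longest transcript in place of merged exons DUSP6, DUSP4, DUSP14 and DUSP5 kept the first 4 places, while DUSP7 moved from place 7 to place 5 in wild-type cells. On that scale the knockout levels of DUSP4, DUSP14 and DUSP5 were 44.6 ± 0.9, 37.5 ± 1.0 and 33.3 ± 0.3, and DUSP4 no longer overlapped DUSP14, so their closeness depends on the length used.

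The make-up of the family's transcripts differed between the genotypes, and DUSP6 took a smaller share in knockout cells. Of the summed per-length level of the 10 genes, DUSP6 made up 36.4% ± 2.1 in wild-type cells against 22.6% ± 1.4 in the knockout (SD, n = 3). DUSP5 went from 8.86% ± 0.72 to 14.8% ± 0.5 and DUSP8 from 0.38% ± 0.12 to 1.74% ± 0.24. The per-length level of DUSP6 was 4.17, 4.58 and 3.64 times that of DUSP5 in the wild-type libraries and 1.52, 1.45 and 1.59 times in the knockout libraries. The summed level of the 3 ERK-specific genes was 96.4 ± 5.5 in wild-type and 94.6 ± 2.0 CPM per kilobase in knockout cells, with overlapping libraries (92.8 to 102.7 against 92.7 to 96.8). For the 3 JNK/p38-directed genes the sum was 14.7 ± 1.2 in wild-type cells against 24.8 ± 1.7 in the knockout, without overlap.

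**Figure D3:**
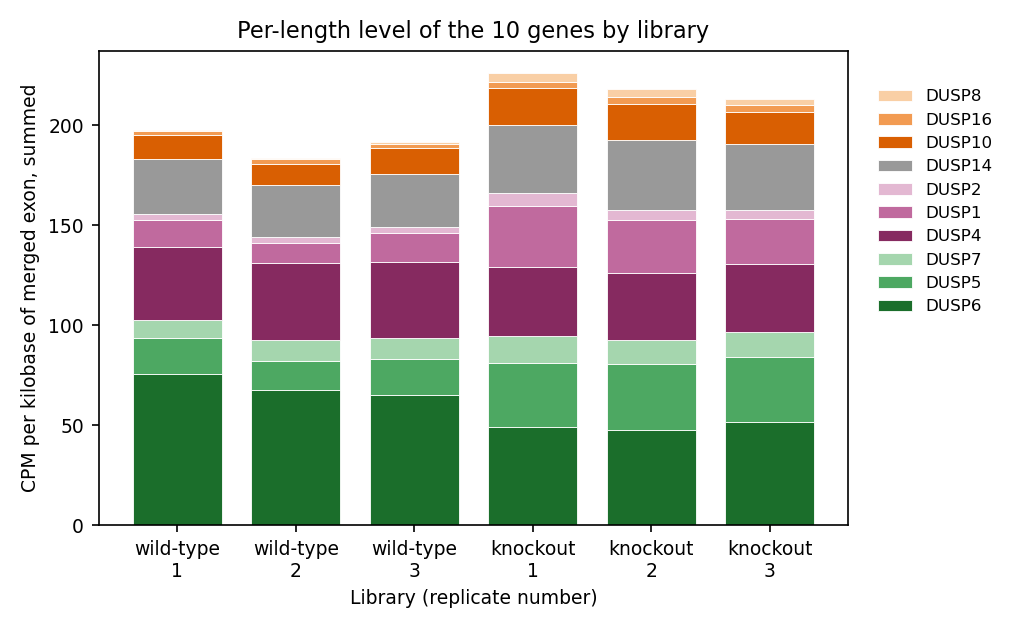
Stacked bars of CPM per kilobase of merged exons for the 10 genes in each of the 6 libraries, green for ERK-specific, purple for broad nuclear, grey for DUSP14 and orange for JNK/p38-directed genes. The DUSP6 block shrinks from 36.4% to 22.6% of the bar on average while the total green height averages 96.4 in wild-type and 94.6 in knockout cells.

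Within a genotype, no single library was the lowest for all members. Wild-type replicate 2 was the lowest of its group for DUSP1, DUSP5, DUSP8, DUSP10 and DUSP14, and knockout replicate 3 was the lowest of its group for DUSP1, DUSP2, DUSP8, DUSP10 and DUSP14. Wild-type replicates 1 and 3 were the lowest for 4 and 1 members, and knockout replicates 1 and 2 for 1 and 4. With 3 libraries a group, this is a description of these libraries.

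Genes within 500 kb of each member were counted in the same fit, where 20.5% of all tested genes rose and 20.7% fell. DUSP5 had 8 tested neighbours, of which 0 rose and 3 fell (median log2 fold change -0.10). DUSP6 had 6, of which 0 rose and 2 fell, with a median of -0.36, the lowest of these medians. DUSP7 had the most, with 5 of 27 higher and 10 lower (median log2 fold change -0.16). Of the neighbours of DUSP8, 1 of 10 rose and 4 fell (median -0.22). DUSP1 had 3 of 9 higher and 2 lower (median -0.10), and DUSP2 had 2 of 13 higher and 2 lower (median 0.08). DUSP16 had 2 of 12 higher and 2 lower (median 0.11). DUSP14 had 4 of 7 higher and 2 lower (median 0.22). None of the 5 tested neighbours of DUSP4 was called (median -0.08), and DUSP10 had no tested neighbour in that window. These counts are small, and no test was made of them.

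The genes whose profile over the 6 libraries was most like that of DUSP5, by root mean square difference of centred log2 CPM among 13487 protein-coding genes, were SERTAD1 (0.0382), AP5Z1 (0.0458) and ALS2CL (0.0485). Their fitted log2 fold changes were 0.99, 0.87 and 0.92. For DUSP8 they were PNLIPRP3 (0.115), LST1 (0.121) and ALOXE3 (0.163), of which PNLIPRP3 was at 0.15 CPM and LST1 at 0.96 CPM in wild-type cells. Their fitted log2 fold changes were 3.16, 2.30 and 2.36, against 2.39 for DUSP8. PNLIPRP3 lay near the level of 3 counts in wild-type cells, where the prior count of 2 weighs on its log2 CPM. The measure takes in the difference between genotypes as well as the spread within them.

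The kinases that the phosphatases act on, and those upstream of them, were read from lists, against 20.5% of all tested genes higher and 20.7% lower. In the ERK cascade list, 3 of 12 tested genes rose, 1 fell and 8 were not called (median log2 fold change 0.08, edgeR), so most members did not pass the test. BRAF, the mutated kinase of this line, rose from 38.3 ± 0.8 to 53.5 ± 3.4 CPM (log2 fold change 0.48, adjusted p = 2.23e-05), and KSR1, a scaffold of the cascade, from 10.3 ± 1.1 to 17.2 ± 0.9 CPM. MAP2K2, a MEK gene, rose by 0.17 on the log2 scale (adjusted p = 0.0295). MAPK3, an ERK gene, fell from 60.1 ± 4.1 to 43.3 ± 1.5 CPM (log2 fold change -0.47, adjusted p = 2.23e-05).

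In the JNK and p38 cascade list, 5 of 17 tested genes rose, 4 fell and 8 were not called (median 0.10), where 20.5% of all tested genes rose and 20.7% fell. These counts are small. The upstream activators of p38 went apart. MAP2K3 rose from 86.6 ± 4.4 to 145.5 ± 5.6 CPM (log2 fold change 0.75, adjusted p = 4.35e-09), and MAP2K6 fell from 14.3 ± 1.3 to 5.36 ± 0.91 CPM (log2 fold change -1.42, adjusted p = 2.23e-07). The JNK scaffold genes MAPK8IP3 and MAPK8IP1 had log2 fold changes of 0.27 and -0.40 (adjusted p = 0.00704 and 0.00323), and the MAPK8IP3 libraries overlapped between genotypes. MAPK8IP2, also a JNK scaffold gene, rose from 1.18 ± 0.07 to 2.35 ± 0.35 CPM (log2 fold change 0.99, adjusted p = 0.0144, edgeR). The widely expressed JNK gene MAPK8 was at 28.9 ± 0.2 and 31.4 ± 0.99 CPM (adjusted p = 0.238) and the p38 gene MAPK14 at 40.8 ± 0.7 and 43.8 ± 0.9 CPM (adjusted p = 0.264). Another JNK gene, MAPK9, fell from 55.9 ± 1.9 to 48.5 ± 1.6 CPM (log2 fold change -0.20, adjusted p = 0.021, edgeR). MAPK10, also a JNK gene, went from 0.87 ± 0.24 to 1.78 ± 0.35 CPM (log2 fold change 1.03, adjusted p = 0.0314, edgeR). Of the other p38 genes, MAPK12 had a log2 fold change of -0.28 (adjusted p = 0.0325, edgeR), and MAPK11 and MAPK13 were not called. Of 17 upstream MAP3 kinases 6 rose, 4 fell and 7 were not called (median 0.08), beside the same 20.5% and 20.7% over all tested genes. MAP3K11, MAP3K2 and TAOK2 had log2 fold changes of 0.30, 0.32 and 0.25, and MAP3K6 fell by 0.45.

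Of 13 tested genes that ERK signalling is known to induce, 5 rose, 5 fell and 3 were not called (median 0.09), where 20.5% of all tested genes rose and 20.7% fell. ETV4 and ETV1, ETS factors whose transcripts follow ERK output, fell from 211.9 ± 7.4 to 124.9 ± 1.3 CPM and from 56.1 ± 0.4 to 31.9 ± 1.9 CPM (adjusted p = 7.50e-10 and 2.78e-08). EGR1, an immediate early factor, rose from 340.8 ± 38.3 to 694.9 ± 19.1 CPM, and EPHA2, a receptor tyrosine kinase, from 153.5 ± 8.5 to 318.2 ± 5.9 CPM (adjusted p = 6.30e-09 and 9.99e-12).

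A list of other dual-specificity phosphatases was read in the same way. Of 18 names listed 16 matched the annotation and 12 were tested, of which 1 rose, 2 fell and 9 were not called (median -0.07), with 20.5% higher and 20.7% lower over all tested genes. DUSP23 fell from 24.2 ± 1.8 to 12.8 ± 1.6 CPM (log2 fold change -0.91, adjusted p = 1.67e-06), DUSP22 fell by 0.37 (adjusted p = 0.0373), and STYXL1, which encodes a catalytically inactive relative, rose by 0.47 (adjusted p = 0.00142). DUSP9, the remaining ERK-directed relative of DUSP6 and DUSP7, was at 10.1 ± 1.7 and 9.13 ± 1.63 CPM (adjusted p = 0.49). Of 6 tested phosphatases of other families that act on MAP kinases 3 rose and none fell, a count too small to set against those shares. PPM1D, which acts on p38 and is a p53 target, rose from 34.9 ± 0.5 to 50.4 ± 2.7 CPM (adjusted p = 7.33e-06), and the catalytic subunit genes PPP2CB and PPP2CA had log2 fold changes of 0.37 and 0.15 (adjusted p = 0.000179 and 0.0222).

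**Figure D4:**
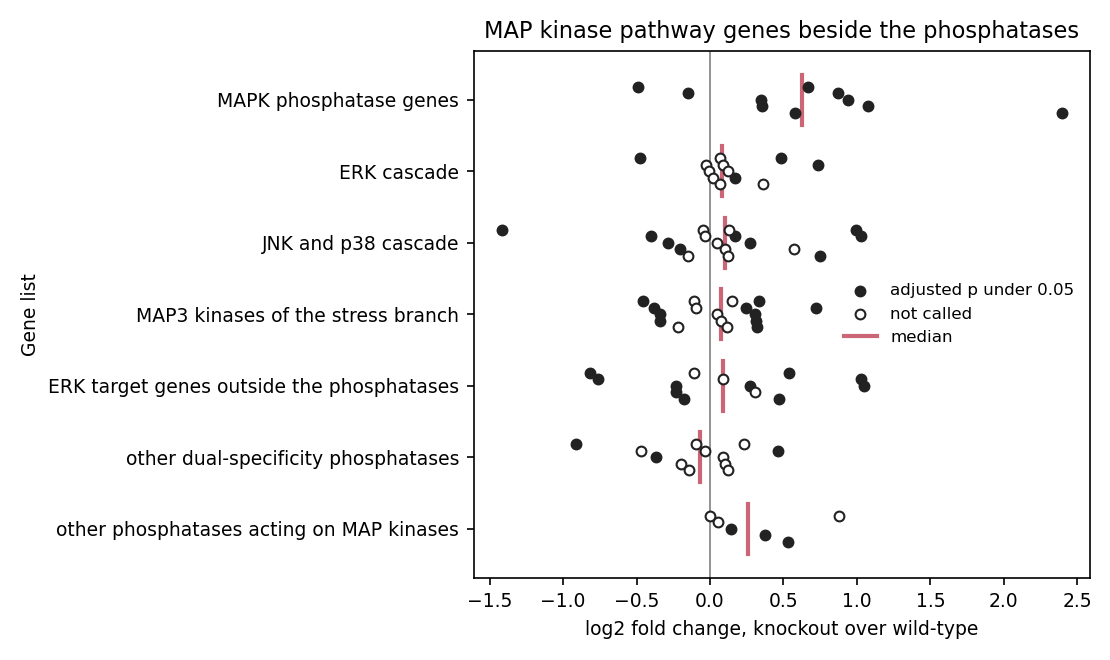
Fitted log2 fold change of each tested gene in 7 lists (rows), with filled points for adjusted p under 0.05, open points for genes not called and a red bar at the list median. The median of the 10 phosphatase genes is 0.62, and the medians of the other lists lie between -0.07 and 0.26.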

How the data were processed

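The deposited table gives, for each gene and library, estimated counts as the authors made them, which need not be whole, and its 6 columns were matched to samples by library name. The build named is GRCh38, per the submitters' processing notes. Which aligner and counter were used, and with what strand setting, is not given in the sources used here, so overlapping and antisense genes may share reads. Of 63086 identifiers, 62541 matched GENCODE release 44, the source of symbols, coordinates and exon lengths.

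Estimated counts were rounded, filtered with filterByExpr (minimum count 10), scaled by TMM and compared with edgeR 4.0.16 (R 4.3.3) by a robust, two-sided quasi-likelihood test with genotype as the only term. P-values were adjusted over 16046 genes by the Benjamini-Hochberg method at 0.05, and glmTreat tested for more than 1.5-fold. Log2 CPM used a prior count of 2. Standard errors derive from the F statistic. The procedure was tested on simulated counts. It recovered 46% of genes changed 1.25-fold, 68% at 1.5-fold, 76% at 2-fold and 91.8% at 4-fold. Of its 147 calls, 7 were unchanged genes. The simulation held 49 or 50 changed genes at each fold change, out of 15769 genes. In the real comparison 41.2% of tested genes were called, so recovery and false calls there may differ. The alternatives were RLE size factors, library size alone, DESeq2 1.42.0, limma-voom (limma 3.58.1), no count filter, a replicate block, leaving out each library, and another gene length.

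The members and gene lists were chosen with earlier results of these data known. Named genes are the members, DUS1L, in each list the called genes with the smallest p (at most 4), and 3 genes most like DUSP5 and DUSP8. MAPK8, MAPK9, MAPK10, MAPK11, MAPK12, MAPK13, MAPK14 and DUSP9 were named after their values were seen, and the motifs were chosen with the members' fold changes known. Some genes of the lists are not reported here. Promoter sequences are RefSeq's.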

Additional observations from a re-analysis of the deposited data

How the results depend on the processing

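Across 12 alternatives no member's log2 fold change changed sign, and the 9 members other than DUSP4 were called at an adjusted p under 0.05 in each. DUSP4 kept a negative log2 fold change and lost its call in 5 of them. With library size alone it was -0.10 (adjusted p = 0.105), which left 1 member lower, and when 1 library was left out it ran from -0.17 to -0.14, with 1 to 2 members lower. The counts of genes past 1.5-fold were 371 higher and 204 lower, and fell to 230 and 110 with DESeq2 and to 226 and 119 with limma-voom, each by that program's own test; the cause was not tested. Same-numbered libraries of the 2 genotypes deviated together with correlations of -0.03, 0.00 (-0.00139) and 0.03, so the numbers were not taken to pair them. With replicate number as a block, 3122 genes were higher and 3119 lower, against 3288 and 3320, and each of the 10 members was still called (DUSP4 log2 fold change -0.15, adjusted p = 0.0438). Wild-type libraries held 50 to 84 estimated counts of DUSP8 and 90 to 104 of DUSP2, which limits the precision of both.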
